A study of Mus musculus with 4 samples.

Results

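Cell-cycle genes were described in the dissociated main olfactory epithelium of adult mice, from stem and progenitor cells to mature sensory neurons. The set held 37 genes of the 55511 features in the deposited count tables, chosen by name for their known role in the cell cycle: 17 mitotic genes, 11 S-phase genes, the 2 E cyclins, the 3 D cyclins, the 3 Cip/Kip inhibitors of cyclin-dependent kinases, and Hmgb2. All 37 were found in the merged table of unique molecular identifier (UMI) counts, each as 1 feature. The libraries came from 4 male C57BL/6 mice, 1 library each, aged 8 weeks, for which the labels name no further allele and no treatment, with droplet capture of single cells and sequencing of transcript 3′ ends. Live nucleated cells had been sorted before capture with the DNA dye Hoechst and with DRAQ7, a dye that enters dead cells, so basal cells were not enriched by that gate. The 4 mice were the replicates (n = 4), and every value below is given per mouse or as the mean ± SD over the mice unless it is said to be pooled. The cells carried the deposited labels of 10 types, of which globose basal cells (GBC) and immediate neuronal precursors (INP) are the main concern here, beside 2 classes of horizontal basal cells (HBC1 and HBC2), immature olfactory sensory neurons (iOSN1 and iOSN2), mature ones (mOSN), sustentacular cells (Sus) and microvillar cells (Mv1 and Mv2).

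The olfactory epithelium is one of the few places in the adult nervous system that keeps making neurons. Horizontal basal cells are a mostly quiescent reserve, globose basal cells divide and give rise to neuronal precursors, and these become immature and then mature sensory neurons that no longer divide. In a dividing cell, D and then E cyclins carry the cell into DNA replication, which uses the Mcm helicase, the sliding clamp Pcna and the nucleotide-making enzymes Rrm1, Rrm2 and Tyms, while Gmnn keeps replication from starting again. Mitosis then draws on Cdk1 with the A and B cyclins, on the kinases Aurka, Aurkb, Bub1 and Plk1, on centromere and spindle proteins, and on the ubiquitin machinery of Ube2c and Cdc20 that ends it. The Cip/Kip proteins p21 (Cdkn1a), p27 (Cdkn1b) and p57 (Cdkn1c) restrain the cyclin-dependent kinases and are often raised as cells leave the cycle.

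After the authors' filters 15859 of 21809 cell barcodes were retained, of which 202 were GBC (86, 29, 24 and 63 in mice 1 to 4), 284 INP, 210 HBC1 and 544 HBC2. Libraries held between 23157467 and 32382702 UMIs, and the median UMI count per cell was 9946 in GBC, 7546 in INP and 4861 in mOSN. Among retained cells, 26 barcodes occurred in more than 1 library. Markers that are not members bore the GBC label out only in part: Kit, a receptor of globose basal cells, was at 1.06 ± 0.328 UMIs per 10000 UMIs there and 0.0480 ± 0.0297 in INP, but also at 0.994 ± 0.282 in Mv1 and 1.13 ± 0.183 in Mv2, and Ezh2 was about as high in INP (4.08 ± 0.161) as in GBC (4.11 ± 0.674). Neurod1, a factor of neuronal precursors, was higher in INP (9.63 ± 2.10) than in GBC (5.62 ± 1.63) and at 0 in HBC1 and 0.00588 in HBC2. INP also carried markers of immature neurons: Stmn2 was at 40.9 ± 1.49 there and at 41.1 ± 2.17 in iOSN1. Gng8 was likewise about equal (12.3 ± 1.18 and 12.3 ± 0.733), while Gap43 was lower in INP (2.25 ± 1.08 and 32.3 ± 1.49). Of 4 markers of horizontal basal cells, Krt5 (21.3 ± 3.31 in HBC1 and 7.28 ± 0.948 in HBC2), Krt14 and Trp63 had the higher mean in HBC1, and Krt15 in HBC2 (1.21 ± 0.864 and 6.85 ± 5.59). Of 3 markers of sustentacular cells, Cyp2g1 (0.865 ± 1.65 in HBC1 and 25.7 ± 13.3 in HBC2) and Cyp1a2 had the higher mean in HBC2, and Ermn in HBC1 (2.42 ± 0.440 and 1.59 ± 0.526). Of the microvillar labels, Mv1 held the Trpm5-bearing cells (6.01 ± 0.832, against 0.00162 in Mv2) and Mv2 those with the transcription factor gene Ascl3 (19.5 ± 2.20, against 0.730 in Mv1). Of the 202 GBC, 153 had been in the GBC cluster of the authors' clustering before filtering, and 49 in other clusters, 26 of these in that of the horizontal basal cells. Since all types were clusters of these same cells on these same counts, members included, p-values between types measure only the spread between mice and are no independent evidence that types differ.

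The level of a gene was its UMIs per 10000 UMIs of all cells of a type in a mouse. GBC made up 1.27% of retained cells and held 2.49% of their UMIs, but 83.0% of the UMIs of the 17 mitotic genes in retained cells (10764 of 12975). Their share of other members was lower: 34.5% of the UMIs of the E cyclins, 26.8% of those of Hmgb2, 20.6% of those of the D cyclins, 18.03% of those of the S-phase genes (2714 of 15056) and 5.49% of those of the Cip/Kip inhibitors. Among retained cells most mitotic transcripts thus lay in GBC, whereas the most numerous type, mOSN, held 6745 S-phase UMIs and 8924 inhibitor UMIs. The blood and immune cells that the authors left out were not counted, and 148 and 297 of these met the cycling criteria given below. By mean level, all 17 mitotic genes were highest in GBC, each without overlap between its 4 mice and those of the next type, as were 10 of the 11 S-phase genes (7 without overlap), both E cyclins (1 without overlap), 1 of 3 D cyclins, 1 of 3 inhibitors and Hmgb2 (also without overlap). Of all 12549 genes that entered the tests below, 11.2% were highest in GBC and 3.52% were so without overlap. Since UMIs count transcript ends, levels were not divided by gene length, and an order between genes is one of counted molecules only.

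**Figure D1:**
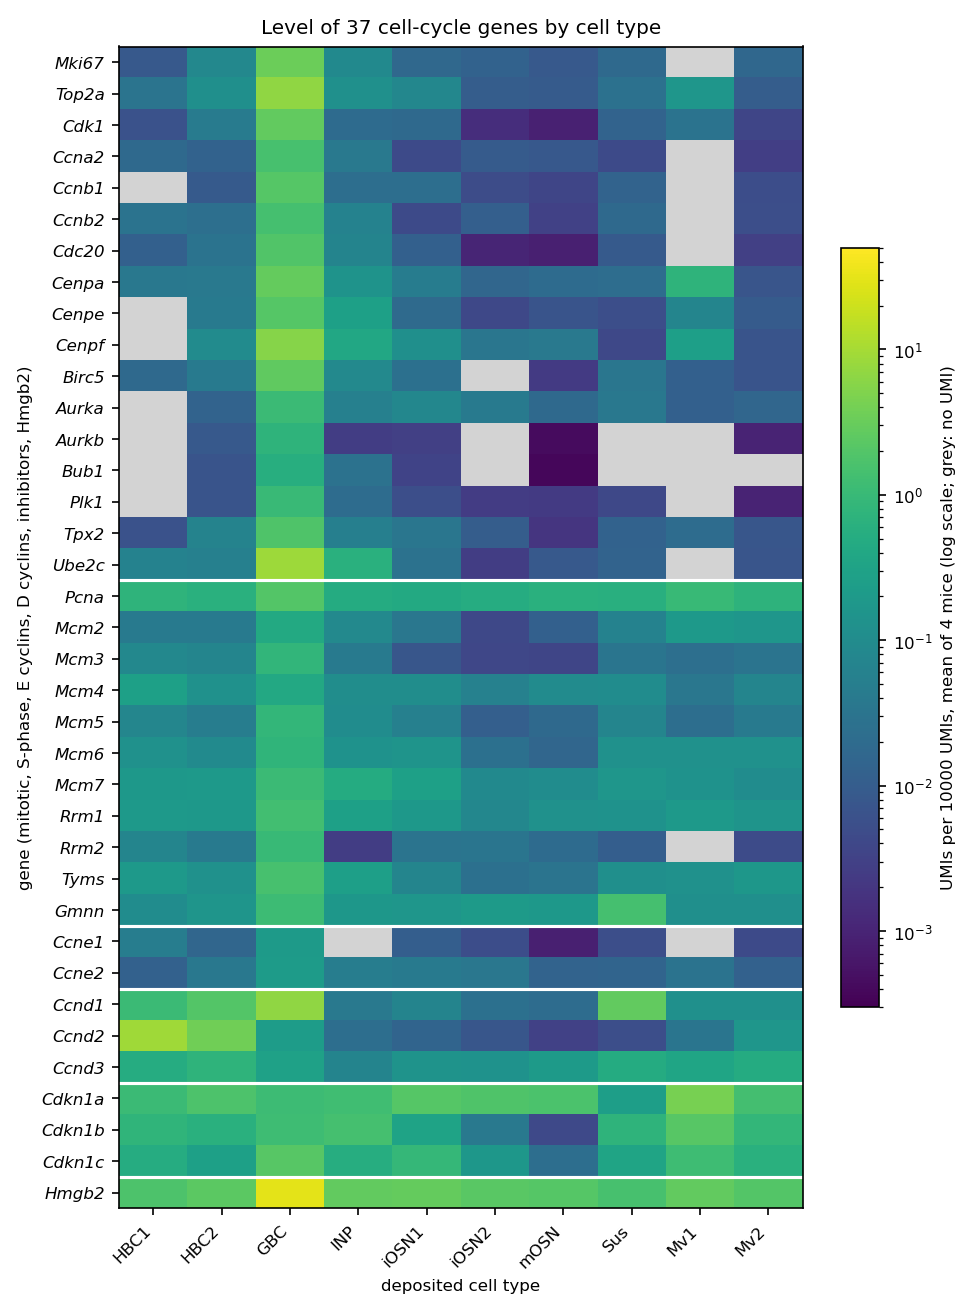
Mean level over 4 mice of the 37 genes (vertical axis) in the 10 deposited cell types (horizontal axis), as UMIs per 10000 UMIs on a logarithmic colour scale, with grey where no UMI was found. The GBC column is the brightest for every mitotic gene, from 0.568 to 8.44, whereas Ccnd2 is brightest in HBC1 and Cdkn1a in Mv1.

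Within GBC the mitotic genes ranged from 0.568 UMIs per 10000 for Bub1 to 8.44 for Ube2c. Ube2c, the ubiquitin-conjugating enzyme of the anaphase-promoting complex, was the highest at 8.27, 7.58, 9.10 and 8.83 UMIs per 10000 in mice 1 to 4, an SD of 0.672. Top2a, which untangles DNA before chromosomes separate, stood at 8.28, 5.59, 7.26 and 6.21, and Cenpf, a protein of the outer kinetochore, at 5.54, 4.35, 6.27 and 6.30. Mki67, whose product coats mitotic chromosomes, had levels of 3.46, 2.65, 4.68 and 2.82. Mouse 2 was the lowest for all 4 of these genes, and no mouse was without any of them.

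The lowest of the group were the kinases Aurkb (0.830, 0.580, 0.764 and 0.749) and Bub1 (0.754, 0.290, 0.605 and 0.624). Cdk1, the kinase that drives entry into mitosis, lay between at 2.78 ± 0.709, and its partners Ccnb1 and Ccnb2 at 2.08 ± 0.295 and 1.42 ± 0.208. Summed over the 17 genes, the level was 46.9 ± 5.39 in GBC, 2.11 ± 0.858 in INP, 0.698 ± 0.217 in HBC2, 0.229 ± 0.152 in HBC1 and 0.135 ± 0.0217 in mOSN. The Mv1 sum of 1.33 ± 0.893 came for the most part from 1 gene, the centromeric histone Cenpa, at 0.749.

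S-phase genes were lower in GBC and less bound to that type. Pcna, the clamp that holds DNA polymerases on their template, was the highest at 2.82, 2.07, 1.05 and 1.92 UMIs per 10000 in mice 1 to 4. Tyms, which makes thymidylate, followed at 1.79, 1.62, 1.34 and 1.22, then Rrm1, the large subunit of ribonucleotide reductase, at 1.52, 1.37, 1.37 and 1.01. These genes were lowest in mouse 3 or 4, and each was detected in the GBC of all mice.

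Gmnn was at 1.48, 1.37, 0.732 and 0.998 in GBC, and it was the 1 member of this group that was higher elsewhere: in Sus it lay at 1.46 ± 0.180, in a range that overlapped with that of GBC. The lowest members were 2 subunits of the replicative helicase, Mcm2 (0.518, 0.539, 0.159 and 0.546) and Mcm4 (0.566, 0.414, 0.255 and 0.468), for which mouse 3 was the lowest. The summed S-phase level was 11.3 ± 2.43 in GBC, against means of 1.07 to 2.89 in the other 9 types. Pcna alone lay at 0.454 to 1.01 in all types outside GBC, mOSN included (0.616 ± 0.0377), and after each cell was thinned to 2000 UMIs a Pcna UMI was found in 23.4% of GBC and 11.6% of mOSN. For Top2a the same shares were 44.5% and 0.172%.

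Promoters of the members were read for short words that are known from promoters of cell-cycle genes. Since the members were chosen by name as such genes, the shares below are no support for their levels in GBC. RefSeq promoters of 300 bases (250 before and 50 after the start of a gene, build GRCm38.p6) were found for 28 of the 37 members (all but Ccna2, Aurkb, Tpx2, Mcm4, Gmnn, Ccne2, Ccnd1, Ccnd2 and Cdkn1c), and both strands were searched, with overlapping words counted. The word TTTGAA, the cell-cycle homology region (CHR) known from genes of late cell-cycle phases, was in 10 of 14 mitotic promoters (71.4%), in 1 of 10 promoters of 9 S-phase genes (10%) and in 17.9% of all 32851 promoters. An E2F word, here TTTGGCGC, TTTCGCGC or TTCCCGCC, was in 1 mitotic promoter (7.14%), in 5 of the S-phase promoters (50%) and in 2.96% of all, and CCAAT in 92.9%, 90% and 37.4%. CHR and CCAAT occurred together in 71.4%, 10% and 6.95%. These are shares of matching letters, not of bound sites, and a promoter without a word only lacks those letters in this window.

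The following promoters are those of the highest mitotic and the highest S-phase gene, with that of Rrm1, the highest S-phase gene with an E2F word, which was added after its letters were seen. They are written 5′ to 3′ on the strand of the gene, and capitals mark the words on either strand. Ube2c (ENSMUSG00000001403, chr2:164769679-164769978, plus strand, across the start of the gene at chr2:164769898-164778822) held 6 CCAAT words, a pair of which overlap as CCAATTGG, and the CHR on the opposite strand as TTCAAA. Pcna (ENSMUSG00000027342, chr2:132253131-132253430, minus strand, gene at chr2:132249162-132253314) held 1 CCAAT word, on the opposite strand, and no CHR or E2F word. Rrm1 (ENSMUSG00000030978, chr7:102441445-102441744, plus strand, gene at chr7:102441695-102469771) held the E2F word TTCCCGCC between 2 CCAAT words.
Ube2c: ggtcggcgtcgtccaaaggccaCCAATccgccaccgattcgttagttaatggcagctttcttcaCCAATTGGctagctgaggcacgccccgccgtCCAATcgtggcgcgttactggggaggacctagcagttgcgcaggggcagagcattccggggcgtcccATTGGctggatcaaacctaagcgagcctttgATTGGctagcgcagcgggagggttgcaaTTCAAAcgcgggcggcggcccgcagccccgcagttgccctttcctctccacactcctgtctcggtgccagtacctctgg
Pcna: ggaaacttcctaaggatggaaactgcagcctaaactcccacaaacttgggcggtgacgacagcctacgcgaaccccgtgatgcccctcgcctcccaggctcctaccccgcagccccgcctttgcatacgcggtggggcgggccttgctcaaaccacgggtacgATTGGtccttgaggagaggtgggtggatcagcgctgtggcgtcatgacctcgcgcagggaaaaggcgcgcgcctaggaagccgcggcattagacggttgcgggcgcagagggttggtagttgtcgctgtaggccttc
Rrm1: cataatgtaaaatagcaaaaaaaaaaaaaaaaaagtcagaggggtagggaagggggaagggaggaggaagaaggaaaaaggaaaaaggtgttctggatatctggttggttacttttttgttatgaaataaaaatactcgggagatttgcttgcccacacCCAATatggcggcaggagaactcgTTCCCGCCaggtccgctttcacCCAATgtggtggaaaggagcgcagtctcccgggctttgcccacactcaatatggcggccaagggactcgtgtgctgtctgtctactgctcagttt

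To count cells that carried several of these transcripts, each cell was thinned at random to 2000 UMIs and was called mitotic with at least 3 of the 17 mitotic genes and S-phase with at least 3 of the 11 S-phase genes. These names stand for the gene lists and not for stages of the cycle. Of the 202 GBC, 196 held enough UMIs. After thinning, 51.2%, 44.4%, 45.8% and 52.5% of GBC in mice 1 to 4 were mitotic (98 of 196 cells, mean 48.5% ± 3.94), and the widest 95% Wilson interval of a mouse ran from 27.9% to 64.9%, in mouse 3 with 24 cells. S-phase cells were 32.1%, 22.2%, 25.0% and 27.9% (56 of 196, mean 26.8% ± 4.24). Taken as either, which is called cycling below, the share was 61.9%, 44.4%, 54.2% and 59.0% (113 of 196, mean 54.9% ± 7.66). In every mouse more than 4 in 10 GBC were thus cycling by this measure. Without thinning, over all 202 GBC, the 3 shares were 55.02%, 52.4% and 60.9%. Of all GBC, 6 of 86, 8 of 29, 9 of 24 and 9 of 63 in mice 1 to 4 were among the barcodes with the highest 4% of doublet scores. Without these barcodes the mitotic share after thinning was 59.3%.

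After thinning, such cells were few outside GBC. In INP 2.11%, 5.71%, 3.45% and 1.20% of cells were mitotic (7 of 271, mean 3.12% ± 1.96) and 0 of 271 were S-phase, which allows a share of up to 1.11%. HBC1 had 0 of 201 cycling cells, which allows up to 1.49%, and HBC2 had 7 of 531 (mean 1.70% ± 2.36), 4 of them in mouse 1 and 3 in mouse 2. Mature neurons, which no longer divide, were taken for comparison, and the source of cell-cycle UMIs in them was not tested. Of 10150 mOSN 0 were mitotic, which allows up to 0.0296%, and 10 were S-phase. Before thinning, the median depth was 3400.5 UMIs in these 10 cells, 4861 over all mOSN and 9946 in GBC. All intervals and floors cover counting error only.

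The mitotic share was higher in GBC than in INP by 45.4 ± 5.81 percentage points, the S-phase share by 26.8 ± 4.24 and the cycling share by 51.8 ± 9.52, in 4 of 4 mice each. By an exact two-sided sign-flip permutation test over the 4 mice each difference gave p = 0.125 (also after adjustment over the 6 differences computed, those to HBC2 included), the smallest p that 4 mice allow, so this design could not reach 0.05. The lowest mitotic share in GBC was 44.4% and the highest in INP 5.71%. The mitotic, S-phase and cycling shares exceeded those of HBC2 by 47.8 ± 4.36, 25.6 ± 5.09 and 53.2 ± 9.52 percentage points, with the same p. Unthinned, the INP shares were 8.10% mitotic and 14.1% S-phase, and those of HBC2 1.56% and 8.37%. The unthinned cycling shares were 5.85% ± 5.21 in HBC1 (15 of 210 cells, up to 12.2% in a mouse), 10.8% ± 3.79 in Sus and 1.45% ± 0.786 in mOSN (143 of 10519 cells), nearly all of them S-phase only.

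**Figure D2:**
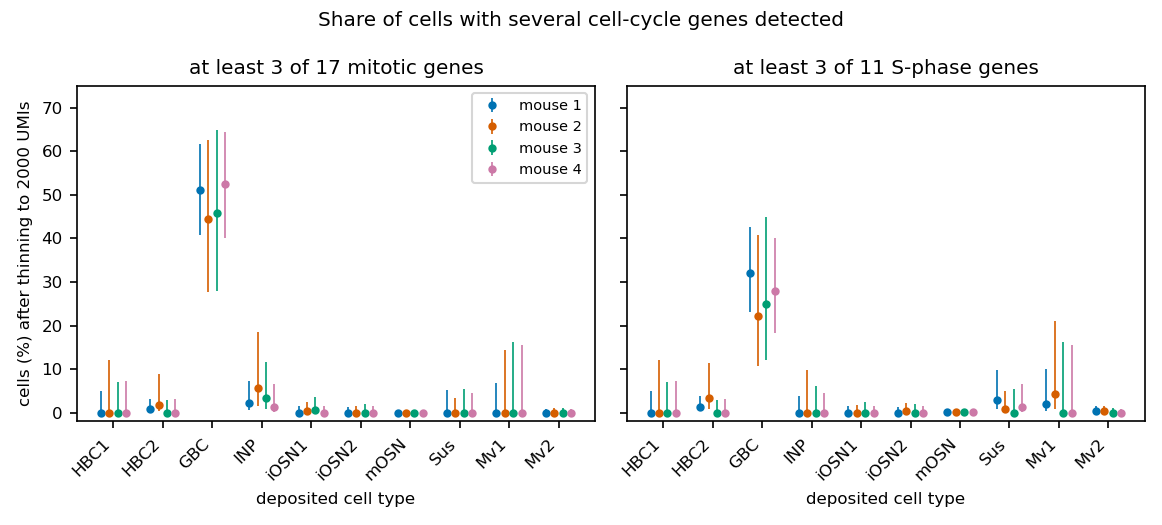
Share of cells (vertical axis, percent, after thinning to 2000 UMIs) with at least 3 of 17 mitotic genes (left) or at least 3 of 11 S-phase genes (right) in each deposited cell type, with 1 point per mouse and its 95% Wilson interval. The GBC points lie between 44.4% and 52.5% on the left and between 22.2% and 32.1% on the right, and no other type exceeds 5.71%.

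Of the 196 GBC with enough UMIs, 76 showed none of the 17 mitotic genes after thinning, 22 showed 1 or 2, 27 showed 3 to 5 and 71 showed 6 or more, with 15 as the highest. S-phase genes were spread more evenly: 67 cells had none, 73 had 1 or 2, 44 had 3 to 5 and 12 had 6 or more. Both criteria were met by 41 cells, the mitotic one alone by 57, the S-phase one alone by 15 and neither by 83. This split depended on the thinning. Without it, over all 202 GBC, 100 cells met both criteria, 16 the mitotic one alone and 12 the S-phase one alone. The classes are thus not stages of the cycle. In INP, by comparison, 221 of 271 cells had no mitotic gene and 1 cell had 6 or more.

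The 28 genes that made these classes are described over them without a test, pooled over mice. Ube2c was at 0.405 UMIs per 10000 in S-phase-only cells, 8.603 in cells with both, 16.8 in mitotic-only cells and 0.0783 in cells with neither. Mcm3 took the opposite order over the first 3 of these, with 3.76, 1.60 and 0.678, and was at 0.0626 in cells with neither. Pcna went from 4.68 and 4.00 to 1.63 and 0.626. Of genes that entered neither class, Ccne1, the cyclin of S-phase entry, was at 0.463, 0.433, 0.185 and 0.0470 (53 UMIs in all), and Hmgb2 at 19.2, 41.7, 49.3 and 4.09. Median UMI counts were 11926, 14709, 13389 and 6527 in the same order, and mouse 2 had no S-phase-only cell.

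The GBC label held cells from different clusters before filtering, and the shares differed between these. Of the 152 cells with enough UMIs that had been GBC before filtering, 112 were cycling (73.7%), against 1 of the 44 others (2.27%). In the former alone the mitotic, S-phase and cycling shares were 63.6%, 35.4% and 72.2%, a restriction chosen after the data were seen. Cells that were not cycling carried Foxi1 (5.25 ± 2.01) and Ascl3 (5.95 ± 3.77), transcription factors of ionocytes and microvillar cells, and Krt18 (11.2 ± 1.92), where cycling cells carried 0.233 ± 0.166, 0.0978 ± 0.124 and 1.94 ± 1.32. The part of such cells in the shares was not tested beyond this restriction.

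Of the cells outside GBC that met the cycling criteria, the 7 in INP were all mitotic, and 6 of them had been in clusters of developing neurons before filtering and 1 in the GBC cluster. The 7 in HBC2 had all been in the cluster of horizontal basal cells, 3 of them mitotic and 5 S-phase (1 of them both), at 2268 to 13827 UMIs per cell, and 2 of the 7 were among the barcodes with the highest 4% of doublet scores. The 10 mOSN, 4 Sus, 2 Mv1, 3 Mv2 and 1 iOSN2 cells were S-phase only, and 2 iOSN1 cells were mitotic.

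Levels between types were compared by edgeR's quasi-likelihood test on UMI sums per mouse and type with mouse as a block, over 12549 genes, with Benjamini-Hochberg adjustment and a threshold of 0.05. Of the 37 members 36 passed the filter on low counts, and Ccne2 did not. Members near 0 outside GBC could pass this filter through GBC alone. Counts of members higher in GBC are thus a description and no independent support. Against INP, 34 of the 36 members were higher in GBC and 0 lower, where 24.4% of all genes tested were called higher and 20.3% lower. All 17 mitotic genes were among them, with a median log2 difference of 4.84 (3.31 for Cenpe to 7.20 for Aurkb), and all 11 S-phase genes, with a median of 2.68 (1.00 for Mcm7 to 7.53 for Rrm2), against a median of 0.05 over all genes.

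Ube2c lay below that median, at a log2 difference of 3.84 ± 0.17 (SE, adjusted p = 4.21e-21 by edgeR), since INP still held it at 0.606 ± 0.195, the highest level of any mitotic gene there. Top2a differed by 5.42 ± 0.27 (adjusted p = 5.07e-17) with 0.125 ± 0.109 in INP. Rrm2, the small subunit of ribonucleotide reductase, had 1 UMI in all INP, a ratio of 229 with an exact counting interval of 40.7 to 9088, and Aurkb likewise had 1 UMI (ratio 172, 30.4 to 6830). The 2 members that were not called were Cdkn1a (log2 -0.08, adjusted p = 0.909) and Cdkn1b (log2 -0.13, adjusted p = 0.595). All 28 mitotic and S-phase genes were higher in GBC than in INP in each of the 4 mice, with no overlap of their ranges, as were 18.7% of all genes tested.

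**Figure D3:**
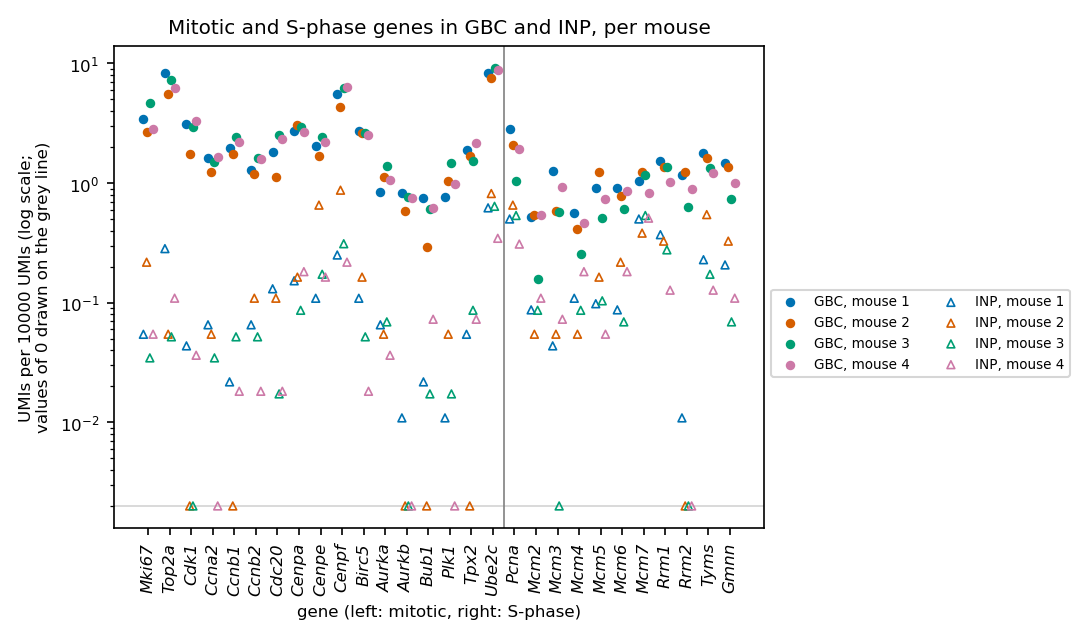
Level of each mitotic (left) and S-phase gene (right) in GBC (filled circles) and INP (open triangles), with 1 symbol per mouse, as UMIs per 10000 on a logarithmic axis, where values of 0 are drawn on the grey line. For every gene the 4 GBC symbols lie above the 4 INP symbols, and Ube2c is the highest in GBC, at 7.58 to 9.10.

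Against HBC1, 32 members were higher in GBC and 2 lower, beside 21.2% and 22% of all genes, and against HBC2 33 were higher and 3 lower, beside 20.3% and 30.4%. Of the genes called against HBC2, 40.1% were higher in GBC, or 57.8% when scaled by library size alone, which moved the median of all genes from -0.20 to 0.09 (log2). The mitotic genes had median log2 differences of 8.06 against HBC1 and 5.58 against HBC2, and the S-phase genes of 2.72 in both. In HBC1 7 mitotic genes had no UMI at all, so that Cenpf was at least 199-fold higher in GBC, Cenpe at least 73.0-fold and Ccnb1 at least 71.5-fold, against a floor of 3 UMIs over the group. With these genes set at their bounds the HBC1 median was 6.91. HBC2 held each of the 17 genes at a low level, from 0.00682 for Plk1 to 0.122 for Top2a. Mcm4 was not called against HBC1 (log2 0.45, adjusted p = 0.307), where HBC1 held it at 0.280 ± 0.140 against 0.426 ± 0.130 in GBC.

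The 3 D cyclins, which join growth signals to the cycle, were by mean level each highest in a different one of the basal types. Ccnd1 was highest in GBC, at 7.90, 2.11, 7.19 and 9.58 UMIs per 10000 in mice 1 to 4, then in Sus (2.75 ± 0.769), HBC2 (2.00 ± 0.273) and HBC1 (1.08 ± 0.125), and was nearly absent from INP (0.0379 ± 0.0157). The GBC of mouse 2 were below those of the other mice and overlapped with Sus and HBC2. In mouse 2 the cycling GBC also carried blood-cell markers at a summed level of 5.20, against at most 0.196 in those of the other mice, and their part in this was not tested. Its log2 difference was 7.59 ± 0.49 against INP, 2.64 ± 0.32 against HBC1 and 1.58 ± 0.22 against HBC2 (adjusted p = 1.93e-13, 5.50e-08 and 4.46e-07 by edgeR).

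Ccnd2 took the reverse order. In HBC1 it stood at 8.63, 11.2, 9.38 and 7.39 in mice 1 to 4, in HBC2 at 3.12, 3.99, 4.13 and 3.44, and in GBC at 0.264, 0.207, 0.382 and 0.0780, with no overlap between these 3 types. GBC were lower by 5.40 on the log2 scale against HBC1 (SE 0.20, adjusted p = 6.29e-27 by edgeR) and by 4.28 against HBC2 (SE 0.20, adjusted p = 7.39e-23). Of the 48 Ccnd2 UMIs in GBC with at least 2000 UMIs, 42 (87.5%) were in the 23 cells that had been clustered with horizontal basal cells before filtering, at a level of 3.37, and 4 were in the 152 cells that had been GBC before, at 0.0205. Restricted to the latter, Ccnd2 no longer differed from INP beyond the threshold (log2 0.18 in place of 3.55).

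Ccnd3 was low in all types and highest in HBC2 (0.733 ± 0.102). In GBC its levels were 0.104, 0.787, 0.127 and 0.172, and 10 of the 19 UMIs of mouse 2 were in a single cell. It was lower in GBC than in HBC1 by 1.37 and than in HBC2 by 2.10 on the log2 scale (adjusted p = 0.00178 and 4.71e-09 by edgeR), and higher than in INP by 1.25 (adjusted p = 0.0233), although the ranges overlapped in all 3 comparisons. The HBC1 call was lost without mouse 1 or mouse 3 and the INP call without mouse 2 or mouse 4 and in GBC that had been so clustered before filtering, with log2 differences down to -0.99 and 0.46.

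The E cyclins, which act at the start of DNA replication, were scarce. Ccne1 was at 0.292, 0.331, 0.0318 and 0.203 in the GBC of mice 1 to 4 (53 UMIs in all) and Ccne2 at 0.302, 0.249, 0.0636 and 0.250 (56 UMIs), with mouse 3 the lowest for both. No Ccne1 UMI was found in INP, so that it was at least 17.4-fold higher in GBC than there (adjusted p = 3.67e-06 by edgeR), and it was also called higher than in HBC1 and HBC2, by 2.31 and 2.88 (log2, adjusted p = 0.0186 and 0.000143). The HBC1 call was lost without mouse 4 (log2 2.00) and under DESeq2 (log2 2.20). Ccne2 was described only: its 4 mice lay above those of INP, whose mean was 0.0484 ± 0.0106.

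**Figure D4:**
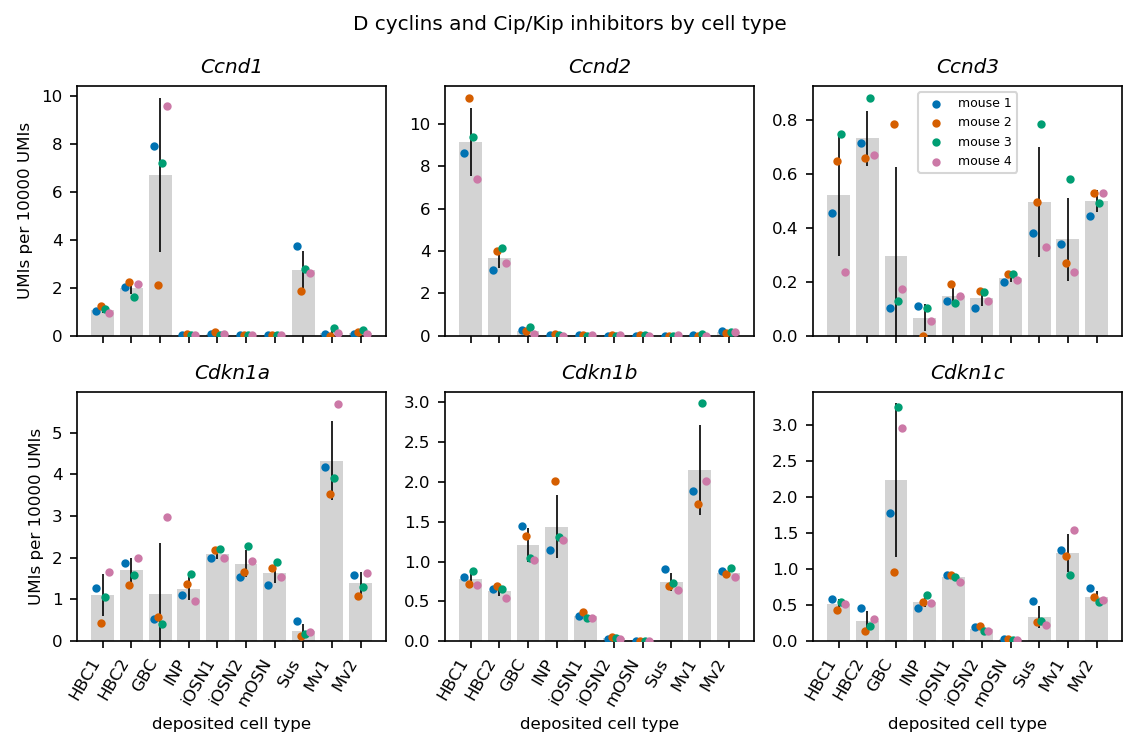
Level of the 3 D cyclins (top) and 3 Cip/Kip inhibitors (bottom) in each deposited cell type, in UMIs per 10000 on linear axes from 0; bars give the mean and error bars the SD of 4 mice, and points the mice. Ccnd1 peaks in GBC and Ccnd2 in HBC1, Cdkn1b ranges from 2.15 in Mv1 to 0.00436 in mOSN, and Cdkn1a in GBC is set by mouse 4.

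Of the 3 inhibitors only 1 was highest in GBC by mean level. Cdkn1c (p57) was highest in GBC, at 1.77, 0.953, 3.25 and 2.96 UMIs per 10000 in mice 1 to 4, followed by Mv1 (1.22 ± 0.259) and iOSN1 (0.888 ± 0.0428), with overlap between GBC and Mv1. In mouse 4, 108 of the 190 UMIs were in 1 cell and in mouse 3 50 were in 1 cell, and without the top cell of each mouse the levels were 1.53, 0.823, 1.74 and 1.29. It was higher in GBC than in INP by 2.04 ± 0.26, than in HBC1 by 1.96 ± 0.33 and than in HBC2 by 2.51 ± 0.25 on the log2 scale (adjusted p = 1.70e-07, 1.03e-05 and 5.84e-10 by edgeR). Within GBC, unlike the mitotic genes, Cdkn1c was lower in cycling cells (0.525 ± 0.262) than in the others (5.84 ± 2.97).

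Cdkn1b (p27) stood at 1.44, 1.33, 1.05 and 1.01 in GBC and at 1.14, 2.02, 1.31 and 1.27 in INP, in overlapping ranges, and was highest in Mv1 (2.15 ± 0.569). It was called higher in GBC than in HBC1 and HBC2 by 0.54 and 0.68 on the log2 scale (adjusted p = 0.0118 and 2.34e-05 by edgeR), without overlap of the ranges. The HBC1 call was lost without mouse 1 and under DESeq2, at log2 differences of 0.39 to 0.45.

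Cdkn1a (p21) had 0.518, 0.580, 0.414 and 2.98 UMIs per 10000 in GBC, and the high value of mouse 4 rested on 1 cell with 147 of its 191 UMIs, without which it was 0.724. It was highest in Mv1 (4.32 ± 0.950), without overlap with any other type, and between 0.250 and 2.09 in the rest. It was called lower in GBC than in HBC2 by 0.83 on the log2 scale (adjusted p = 0.0429 by edgeR), a call that 9 alternatives did not keep, among them leaving out mouse 1, 2 or 3, the fit without the mouse block and both other scalings, with log2 differences from -0.85 to -0.27. Without mouse 4 it was called lower in GBC than in INP, and the log2 difference went from -0.08 to between -1.34 and -1.45 there and in GBC restricted to those clustered as GBC before filtering.

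Hmgb2, a chromatin protein that is abundant in dividing cells, stood at 33.9, 29.4, 29.9 and 30.6 UMIs per 10000 in the GBC of mice 1 to 4, far above iOSN1, the next type, at 2.98 ± 0.107. Its lowest level in any type was 1.54 ± 0.501, in Sus. It was higher in GBC by 3.43 ± 0.10 against INP, 4.04 ± 0.11 against HBC1 and 3.34 ± 0.09 against HBC2 on the log2 scale (adjusted p = 1.49e-35, 1.60e-35 and 5.57e-37 by edgeR).

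From INP to iOSN1, the first label of immature neurons, 16 of the 36 members were higher in INP and 1 lower, beside 18% and 21.7% of all genes tested. The 16 were 10 mitotic genes, 5 S-phase genes (Mcm2, Mcm3, Mcm7, Rrm1 and Tyms) and Cdkn1b. Ube2c had the largest log2 difference, 4.40 ± 0.38 (adjusted p = 2.66e-12 by edgeR), from 0.606 ± 0.195 to 0.0278 ± 0.0190, and Cenpe, a kinesin that moves chromosomes, differed by 3.40 ± 0.47 (adjusted p = 2.88e-08). Cdkn1b differed by 2.13 ± 0.14 (adjusted p = 2.65e-19), from 1.44 ± 0.394 to 0.316 ± 0.0408, with no overlap. Cdk1, Ccnb1 and Pcna were among the 19 that were not called, at log2 differences of 0.54, 0.15 and 0.10.

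Without mouse 1 the count of members higher in INP fell to 8, since 8 calls among them, such as those of Mki67, Birc5 and Cdc20, were lost. The call of Mki67 (log2 2.03) was also lost without mouse 3 or 4 and without the mouse block. Cdkn1c was the 1 member lower in INP (0.542 ± 0.0750) than in iOSN1 (0.888 ± 0.0428), by 0.71 on the log2 scale (adjusted p = 0.0374 by edgeR). Its ranges did not overlap, but 8 alternatives lost the call, among them leaving out mouse 1, 2 or 4 and dropping the block, with log2 differences from -0.76 to -0.54.

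From iOSN1 to mOSN 22 members were higher in iOSN1 and 2 lower, beside 29.8% and 30.2% of all genes. The inhibitors Cdkn1b and Cdkn1c led, with log2 differences of 5.81 ± 0.22 and 5.01 ± 0.23 (adjusted p = 7.37e-32 and 4.63e-18 by edgeR). Cdkn1b went from 0.316 ± 0.0408 to 0.00436 ± 0.000852 UMIs per 10000 and Cdkn1c from 0.888 ± 0.0428 to 0.0236 ± 0.00362, in 4 of 4 mice, whereas Cdkn1a (2.09 ± 0.122 and 1.64 ± 0.239) was not called (log2 0.17, adjusted p = 0.521). Pcna and Ccnd3 were lower in iOSN1, by 0.62 and 0.75. The 11 mitotic genes called here had low levels on both sides, at most 0.121 in iOSN1. The call of Ccnd1 (log2 1.49) was lost without any 1 of the mice, at log2 values from 0.91 to 1.72, and that of Ccnd2 without mouse 1 (log2 0.12). With library sizes alone as the scale, the share of all called genes that were higher in iOSN1 went from 49.7% to 61.7%, and the median of all genes from -0.00 to 0.18 (log2).

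Between the classes of horizontal basal cells, 2 members were higher in HBC1 and 4 lower, beside 7.31% and 12.7% of all genes. Higher were Ccnd2, by 1.13 ± 0.12 on the log2 scale (adjusted p = 1.37e-10 by edgeR), and Mcm4, by 1.15. Lower were Hmgb2, by 0.70 (1.75 ± 0.241 against 2.47 ± 0.192), Ccnd1, by 1.06 (1.08 ± 0.125 against 2.00 ± 0.273), Cenpe, which had no UMI in HBC1 and was at least 1.52-fold lower there, and Tpx2, with 1 UMI in HBC1 (ratio 0.146, exact counting interval 0.00359 to 0.880). Only the calls of Ccnd2 and Hmgb2 remained without any 1 of the mice. Without mouse 1, 3 or 4 the counts were 1 and 1 and without mouse 2 they were 2 and 5, and the share of called genes higher in HBC1 went from 36.6% to 51.3% with relative log expression factors and 56.1% with library sizes alone, where the median of all genes went from -0.18 to -0.05 and 0.00 (log2).

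Within GBC, the members that had not made the classes were compared between the 113 cycling cells and the 83 others (52, 12, 13 and 36 against 32, 15, 11 and 25 in mice 1 to 4), by the same edgeR test on 8 sums over 3494 genes. Of the 5 such members that could be tested, 3 were higher in cycling cells and 1 lower, where 15.2% of all genes were called higher and 14.1% lower. These members were counted in the same cells as the genes that made the classes. Their p-values thus measure the spread between mice and are no independent evidence that the classes differ. Hmgb2 was at 42.9, 44.5, 44.8 and 42.3 UMIs per 10000 in the cycling cells of mice 1 to 4 and at 2.48, 2.74, 2.35 and 7.33 in the others, a log2 difference of 3.57 ± 0.35 (adjusted p = 0.000868). Ccnd1 was at 9.29, 2.73, 8.44 and 12.7 against 3.12, 0.833, 4.89 and 3.38, higher in cycling cells of every mouse while the ranges of the classes overlapped. Its log2 difference of 1.36 ± 0.20 (adjusted p = 0.000235) was called with mouse as a block and lost without it (log2 1.30).

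The inhibitors p27 and p57 went in opposite directions. Cdkn1b was higher in cycling cells (1.64, 1.82, 1.28 and 1.15 against 0.769, 0.476, 0.634 and 0.666), by 1.01 ± 0.27 on the log2 scale (adjusted p = 0.0149 by edgeR), and this call was lost without mouse 1 (adjusted p = 0.0858) and under DESeq2. Cdkn1c was lower (0.863, 0.260, 0.393 and 0.585 against 4.996, 2.02, 8.51 and 7.85), by 3.45 (SE 0.29, adjusted p = 7.80e-06 by edgeR). Neither gene overlapped between the classes, also after the cell with the most UMIs was left out of each class and mouse, when Cdkn1c stood at 0.394 ± 0.278 and 3.30 ± 1.28. With a criterion of at least 2 genes in place of 3 the Cdkn1c call was lost (log2 -2.24).

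Cdkn1a was not called (log2 -2.04, adjusted p = 0.120 by edgeR), with 0.474, 0.195, 0.491 and 0.608 in cycling cells against 0.683, 1.31, 0.272 and 7.85, but it was called without mouse 3 (log2 -2.49, adjusted p = 0.0203). Ccnd2, Ccnd3, Ccne1 and Ccne2 had too few UMIs for the test: Ccnd2 had 5 in cycling cells and 43 in the others, Ccne1 50 and 3. In GBC that had been GBC before filtering, 112 cycling and 40 others, the calls of Hmgb2, Ccnd1, Cdkn1b and Cdkn1c remained (log2 3.72, 1.67, 1.23 and -4.14), while Foxi1 and Ascl3 were still at 7.61 ± 0.924 and 6.85 ± 3.03 in the others and mouse 3 had only 3 such cells. Cycling cells held more UMIs (median 13962 against 6527), and Neurod1 was at 8.22 ± 2.34 in them and 0.0119 ± 0.0238 in the others. The part of depth and of the markers of other cells given above in these differences was not tested.

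**Figure D5:**
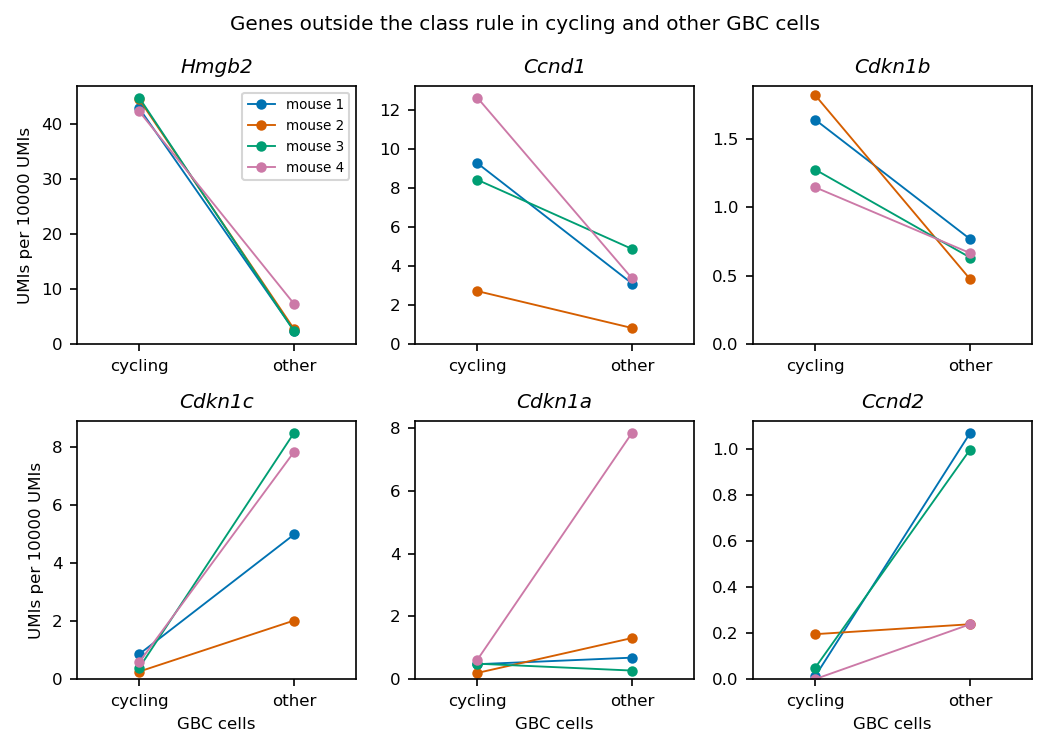
Level of 6 genes that were not used to make the classes, in UMIs per 10000 on linear axes from 0, in cycling and other GBC, with the values of each mouse joined by a line. Hmgb2, Ccnd1 and Cdkn1b are higher in cycling cells of all 4 mice and Cdkn1c in the others, while Cdkn1a in the others is highest in mouse 4, at 7.85.

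Other genes of the cell cycle came from 3 lists that were not trimmed by their values. They passed the same filter, which genes near 0 outside GBC could pass through GBC alone. They were also counted in the same cells as the members, so the counts below are a description and no independent support. Of 27 further mitotic genes that could be tested, 26 were higher in GBC than in INP and 0 lower, beside the 24.4% and 20.3% over all genes. Hmmr, a spindle protein, had 335 UMIs in GBC and 1 in INP, and Kif11, the motor that separates spindle poles, 241 and 1, while the smallest log2 differences among those called were 1.69 for the condensin subunit Ncapd2 and 0.41 for Hjurp, a chaperone of Cenpa. Of 25 further S-phase genes 25 were higher, with Clspn (176 UMIs in GBC) and Cdca7 (28 UMIs) at 0 in INP and a log2 difference of 0.68 for Rfc2, the smallest. Against HBC1 the counts were 27 of 27 and 24 of 25, beside 21.2% of all genes, and against HBC2 the same, beside 20.3%.

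The list of Rb/E2F factors and kinase regulators was mixed: 16 of 24 were higher in GBC than in INP and 2 lower, beside 24.4% and 20.3% of all genes. Foxm1, the activator of mitotic genes, had 59 UMIs in GBC and 1 in INP, and E2f3 had a log2 difference of 3.64, while the retinoblastoma gene Rb1 was lower by 1.34 and the p19 inhibitor gene Cdkn2d by 0.51 on that scale (adjusted p = 4.59e-05 and 0.0272 by edgeR). Rbl2, which encodes p130, a pocket protein of quiescent cells, was lower in GBC than in HBC1 by 1.61 and than in HBC2 by 0.78. In cycling against other GBC, 20 of 21 mitotic and 13 of 13 S-phase genes of these lists were higher and 0 lower, beside 15.2% and 14.1% of all genes tested there, but they are transcribed in the same cells as the genes that made the classes. Of the 27 regulators only 6 could be tested there, of which 3 were higher in cycling cells, namely Cdkn2d (1.35), Trp53 (1.17) and Cdk4 (1.11), and 0 lower.

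Outside all lists, the 10 genes whose level over the 40 sums of type and mouse was most like the summed mitotic level had a Pearson r, on log2(UMIs per 10000 + 0.1), between 0.8997 and 0.925, among 6166 genes with at least 50 UMIs in GBC. They were Snrpg, a spliceosome protein, Lockd, the histone genes H2ax and H2ac8, Arhgap11a, Gm42047, Hmgb1, the paralogue of Hmgb2, the condensin subunit Ncapg, Pimreg and Incenp, a partner of Aurkb. In GBC their levels ran from 0.332 for Gm42047 to 17.8 for Hmgb1. The 40 points share libraries and cell types, so that these values rank genes and carry no test.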

How the data were processed

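Single-cell RNA sequencing was done on 4 libraries, 1 per mouse. The authors aligned and counted the reads with Cell Ranger 6.0.1 on GRCm38 and deposited raw UMI counts per gene and barcode, with the cluster of each barcode before and after their filtering. The member counts of the merged table were checked against the 4 separate matrices, and 0 values differed. The 37 genes and the other lists were chosen with earlier results of these data known.

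UMIs were summed per mouse and deposited type (40 sums) and tested with edgeR 4.0.16 (R 4.3.3) by its quasi-likelihood test, with trimmed-mean scaling, its default filter on low counts and mouse as a block, since types of 1 mouse come from the same animal. P-values were adjusted by the Benjamini-Hochberg method at 0.05. DESeq2 1.42.0, other scalings, filters, thresholds and cell selections, and fits without each mouse, were the alternatives. Before shares were computed, cells were thinned to 2000 UMIs and shallower cells, 6 of them GBC, were left out. Intervals are 95% Wilson intervals, and a count of 0 allows 3 counts. Scrublet in scanpy 1.11.5 marked 0.0351% to 0.600% of barcodes as doublets, too few to be relied on, so the 4% with the highest scores were left out as an alternative. The scripts were tested on simulated counts.

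Members with per-mouse values were the 4 highest and 2 lowest in GBC of the mitotic and S-phase groups and every cyclin D, cyclin E, inhibitor and Hmgb2. From the other lists, the 2 largest and 2 smallest differences among called genes were eligible to be named. Values of a few non-member genes are not reported here.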

Additional observations from a re-analysis of the deposited data

Results flagged for a closer look

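In 5 of 87 groups of 4 mice that were examined, 1 mouse stood apart from the others by more than Dixon's 95% limit, where chance gives about 1 in 20. In GBC, Mcm2 was at 0.159 UMIs per 10000 in mouse 3, against 0.518 to 0.546 in the other mice. Ccnd3 was at 0.787 in the GBC of mouse 2 (others 0.104 to 0.172), and Cdkn1a at 2.98 in those of mouse 4 (others 0.414 to 0.580), where 1 cell held 10 of 19 and 147 of 191 UMIs. Without the top cell of each mouse Ccnd3 was still at 0.382 in mouse 2 (others 0.0767 to 0.115), and Cdkn1a was at 0.724 in mouse 4. Cdkn1c in Sus was at 0.561 in mouse 1 (others 0.220 to 0.274), and Hmgb2 in INP at 3.22 in mouse 1 (others 2.51 to 2.62).

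Some of the barcodes that the authors left out also met the cycling criteria. The shares below are of those with at least 2000 UMIs, and the paper removed more cells than these in the same clusters. In their 2 clusters of blood cells the share was 58.5% ± 8.92 over the 4 mice (148 of 256 cells, 50.8% to 71.0%), and in their 7 clusters of immune cells 21.8% ± 11.6 (297 of 1275 cells, 8.50% to 36.0%). In the clusters with a high share of mitochondrial transcripts it was 0.370% (2 of 320 cells).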

How the results depend on the processing

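Of 231 alternative values of shares, summed levels and counts of members, 183 stayed within the limits given for each and 48 moved, and of 2053 for single genes 1930 kept direction and call, 108 lost a call, 7 gained one, 7 levels moved and 1 reversed, Ccnd2 between iOSN1 and mOSN (log2 -0.84 without the highest doublet scores). The cause of each was not tested. The mitotic share of GBC was 52.7% with at least 2 genes, 42.3% with at least 4, 55.02% without thinning, 58.4% when thinned to 5000 UMIs, 59.3% without the highest doublet scores and 63.6% in GBC so clustered before filtering, and the S-phase share 38.6%, 17.03%, 52.4%, 45.7%, 33.1% and 35.4% in the same order, and 22.5% without Pcna. The cycling share was 67.4% and 72.2% under the last 2 of these selections of cells. In INP the mitotic, S-phase and cycling shares were 5.97%, 2.76% and 8.47% with at least 2 genes and 8.10%, 14.1% and 20.1% without thinning, and the S-phase and cycling shares 5.90% and 10.03% at 5000 UMIs. The summed mitotic level of GBC was 37.6 as a mean over cells and 57.7 without the highest doublet scores. Members lower in INP than in iOSN1 numbered 0 under DESeq2, without the low-count filter, without the replicate block, with only 6 types and without the highest doublet scores, members lower in HBC1 than in HBC2 2 under DESeq2 and without the filter, members lower in cycling GBC 2 without the filter and 0 with at least 2 genes, and members lower in GBC than in INP 1 in GBC so clustered before filtering. Without 1 mouse these counts ran from 0 to 1 for INP and iOSN1 (members higher, 8 to 15), 1 to 5 for HBC1 and HBC2 (higher, 1 to 2), 1 to 2 for cycling GBC, 0 to 1 for GBC and INP and 1 to 2 for GBC and HBC1. Depth limits Ccnd2, Ccnd3, Ccne1 and Ccne2, with 45 to 56 UMIs each in all GBC.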
